A study of Mus musculus with 48 samples.

Results

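Nrf2, the product of Nfe2l2, is a transcription factor of the cap'n'collar family that turns on genes against oxidants and reactive electrophiles. In unstressed cells the adaptor Keap1 holds Nrf2 and passes it to Cul3 for degradation, and modified Keap1 lets Nrf2 reach the nucleus, where it pairs with small Maf proteins at antioxidant response elements. In liver its best known targets make and recycle glutathione, reduce thioredoxin and peroxiredoxins, and detoxify quinones, epoxides and heme.

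The Nrf2 antioxidant genes described here were 10 genes taken by symbol: Nfe2l2 itself, Nqo1, Ephx1, Gclc, Gclm, Gsr, Txnrd1, Srxn1, Cat and Hmox1. All 10 were listed among 11275 genes of the frozen (FROZ) table, and 8 of them among 6673 genes of the formalin-fixed, paraffin-embedded (FFPE) table, where Nqo1 and Hmox1 were not listed and were not analysed. The mice were male B6C3F1 animals, 4 weeks of age and of 1 strain, with no transgene named. They drank dichloroacetic acid (DCA), a by-product of water chlorination, at 0, 1.0, 2.0 or 3.5 g/L for 6 days, which corresponded to 0 (vehicle controls), 198, 313 and 427 mg/kg-d. Each dose had 6 animals, and each animal gave 1 FROZ and 1 FFPE library by TempO-Seq, an assay in which pairs of detector oligos are ligated on their target transcript, amplified and counted. FROZ libraries started from isolated RNA of mixed lobes and FFPE libraries from lysates of archival blocks of partly other lobes.

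Values are log2(CPM + 1), where CPM is reads per 1000000 reads on the listed genes, and a call is a false discovery rate (FDR) under 0.05 in limma across all genes of a table. FROZ libraries held 6.69 to 9.84 M reads and FFPE libraries 1.83 to 6.01 M, so 1 read was worth 0.102 to 0.150 CPM in FROZ and 0.166 to 0.546 CPM in FFPE. The tissue was checked against 6 hepatocyte markers, all listed in FROZ, whose summed level lay between 19103 and 36238 CPM over the 24 libraries. Fewer cells of a type and less RNA per cell cannot be told apart in such bulk samples.

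All 10 are protein-coding genes of mouse build GRCm38, the assembly behind mm10. In GENCODE coordinates, Nfe2l2 is at chr2:75675513-75704641, Nqo1 at chr8:107388225-107403206, Ephx1 at chr1:180976210-181020904 and Cat at chr2:103453849-103485160, all on the minus strand. On the plus strand lie Gclc at chr9:77754535-77794485, Gclm at chr3:122245557-122270732, Gsr at chr8:33652523-33698163, Txnrd1 at chr10:82833951-82897712, Srxn1 at chr2:152105516-152111376 and Hmox1 at chr8:75093621-75100589. Txnrd1 overlaps the coding gene Eid3 on the same strand. Which exon each detector oligo pair covers was not given in the sources used here.

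The antioxidant response element that Nrf2 is known to bind holds the core TGACNNNGC, and the members' promoters are shown for that core. RefSeq start-site windows (GRCm38.p6, 250 bases before to 50 after the start) were matched by symbol for 7 of the 10 genes, with 3 windows for Txnrd1, and not for Gclc, Gsr and Hmox1. On either strand the core stood in 4 of 9 member windows, 1 each of Nfe2l2, Gclm, Txnrd1 and Srxn1, against 12.4% of all 32851 windows. Counted from the start site, the first base of the match lay at -240 in Nfe2l2, -134 in Gclm and -92 in the second Txnrd1 window, and at 29, past the start, in Srxn1. The windows of Nqo1, Ephx1 and Cat held no match. A match is a run of letters and not a measured binding site. The stretches around the 3 upstream matches are given with the core in capitals (in the reverse orientation, GCNNNGTCA, for Gclm and Txnrd1), followed by the stretches from 100 to 11 bases before the start for Ephx1 and Nqo1, which had no match and rose with dose.
Nfe2l2 (chr2:75704885-75704913, minus strand): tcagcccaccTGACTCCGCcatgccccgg
Gclm (chr3:122245393-122245462, plus strand): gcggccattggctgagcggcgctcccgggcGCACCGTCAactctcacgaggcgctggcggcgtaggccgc
Txnrd1 (chr10:82859084-82859153, plus strand): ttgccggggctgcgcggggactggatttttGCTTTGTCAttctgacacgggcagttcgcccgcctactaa
Ephx1 (chr1:181017580-181017669, minus strand): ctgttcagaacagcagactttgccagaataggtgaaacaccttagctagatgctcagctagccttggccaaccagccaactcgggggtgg
Nqo1 (chr8:107403216-107403305, minus strand): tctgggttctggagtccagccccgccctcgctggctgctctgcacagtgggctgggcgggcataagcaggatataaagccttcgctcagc
The core stood beside genes that rose (Nfe2l2, Txnrd1, Srxn1) and beside Gclm, which did not. Ephx1 and Nqo1 rose without it in these windows, and Cat neither had it nor was called. Gclc rose but had no window. The Nfe2l2 stretch overlaps an annotated exon. A link between the core and the rise was not tested.

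In frozen livers 6 of the 10 genes rose at 427 mg/kg-d, and none fell. Nfe2l2, the detoxifying enzymes Nqo1 and Ephx1, the sulfiredoxin Srxn1, the thioredoxin reductase Txnrd1 and the ligase subunit Gclc were higher, by 1.75-fold (Gclc) to 4.12-fold (Ephx1). Gclm, Gsr, Cat and Hmox1 did not pass the test at that dose. Of all genes tested, 22.7% were called higher at 427 mg/kg-d, and 7.33% lower. The median log2 change was 0.84 over the 10 genes and 0.10 over all genes. At 313 mg/kg-d, 7 of the 10 were called higher, the same 6 and Gsr, where 20.5% of all genes were. The 3 doses of a table share the same 6 controls, so their comparisons are not independent. At 198 mg/kg-d none of the 10 was called, where 1.56% of all genes were called in either direction. Ephx1, Gclc and Srxn1 had an unadjusted limma p below 0.05 at that dose. The share of all genes below that unadjusted limit is not given here. With a fold above 2 as well, Nqo1, Ephx1 and Srxn1 passed at 313 mg/kg-d (2.31% of all genes) and the same 3 with Nfe2l2 at 427 mg/kg-d (3.5%).

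The scaling of the libraries bears on these backgrounds. Of the genes called, 75.6% were higher at 427 mg/kg-d and 77.0% at 313 mg/kg-d, and with median-ratio scaling in place of CPM the shares were 50.0% and 48.6%. At 198 mg/kg-d the share moved from 71.6% to 23.4%. Median-ratio scaling called 2847 of the 11275 genes at 427 mg/kg-d and 2378 at 313 mg/kg-d. The 6 genes called at 427 mg/kg-d were all still called with that scaling, whereas Gclc and Gsr were not called at 313 mg/kg-d (FDR 0.138 and 0.142).

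**Figure D1:**
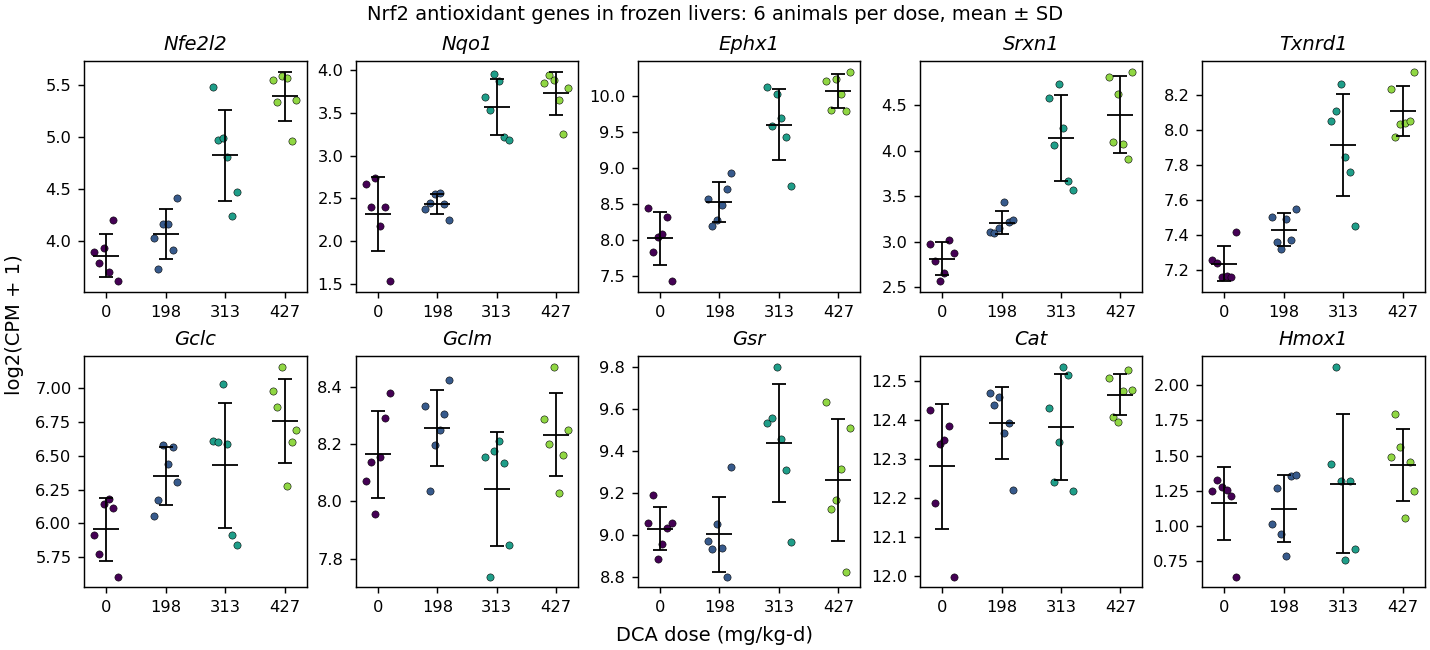
Levels of the 10 genes in FROZ livers, 1 panel a gene, with dose in mg/kg-d on the x axis and log2(CPM + 1) on the y axis, whose range differs between panels and does not start at 0. Points are the 6 animals of a dose and bars the mean ± SD. All 6 animals at 427 mg/kg-d lie above all 6 controls for Nfe2l2, Nqo1, Ephx1, Srxn1, Txnrd1 and Gclc, as they do for 11.4% of all genes.

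Nfe2l2, the regulator itself, rose in FROZ at 313 and 427 mg/kg-d. In controls, animals 3 to 8, Nfe2l2 stood at 3.89, 3.79, 3.93, 3.70, 4.20 and 3.61. The 198 mg/kg-d animals, 49 to 54, had 4.02, 3.72, 4.16, 4.16, 3.91 and 4.41, within or just above the range of the controls. Animals 73 to 78 at 313 mg/kg-d had 5.49, 4.98, 4.99, 4.81, 4.24 and 4.47, and animals 97 to 102 at 427 mg/kg-d had 5.55, 5.34, 5.59, 5.57, 4.97 and 5.36. The 2 higher doses therefore did not overlap with the controls, and the lowest value at 313 mg/kg-d, 4.24 in animal 77, was just above the highest control, 4.20. Of all genes, 11.4% had all 6 animals at 427 mg/kg-d above all controls, and that share at 313 mg/kg-d is not given here. From the lowest to the highest dose, the log2 fold changes were 0.21 ± 0.16 (SE), 0.97 ± 0.16 (limma FDR 5.2e-05) and 1.54 ± 0.16 (limma FDR 3.1e-08). In CPM, the mean of the 6 controls was 13.6 and that of the 427 mg/kg-d animals 41.5. Nfe2l2 was the 1 member that rose again from 313 to 427 mg/kg-d, by 0.57 ± 0.16 (limma FDR 0.0470), a step at which 1.73% of all genes were called higher.

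Ephx1, the microsomal epoxide hydrolase that adds water to epoxides, had the largest log2 change of the 10 genes in FROZ at each dose. Its levels were 8.45, 7.84, 8.04, 8.08, 8.32 and 7.43 in FROZ controls and 8.57, 8.20, 8.28, 8.49, 8.72 and 8.94 at 198 mg/kg-d. They were 10.13, 9.59, 10.04, 9.70, 9.43 and 8.76 at 313 mg/kg-d and 10.21, 9.81, 10.24, 10.03, 9.79 and 10.34 at 427 mg/kg-d. Controls and 198 mg/kg-d animals overlapped, with 4 of 6 treated animals above all controls, and the 2 higher doses stood clear of the controls. The log2 fold changes were 0.51 ± 0.18 (SE; limma FDR 0.146), 1.58 ± 0.18 (limma FDR 5.4e-07) and 2.04 ± 0.18 (limma FDR 2.8e-09). The rise from 198 to 313 mg/kg-d passed the test (1.07 ± 0.18, limma FDR 0.00028), and the difference between 313 and 427 mg/kg-d did not (0.46 ± 0.18, limma FDR 0.176).

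Nqo1, the quinone reductase that is the usual marker of Nrf2 activity, rose between 198 and 313 mg/kg-d. Its levels were 2.67, 2.40, 2.74, 2.17, 2.40 and 1.53 in FROZ controls and 2.38, 2.45, 2.55, 2.56, 2.44 and 2.24 at 198 mg/kg-d, with no 198 mg/kg-d animal above all controls. At 313 mg/kg-d they were 3.69, 3.53, 3.95, 3.87, 3.22 and 3.18, and at 427 mg/kg-d 3.85, 3.94, 3.89, 3.66, 3.25 and 3.79, all above every control. The log2 fold changes were 0.12 ± 0.17 (SE), 1.26 ± 0.17 (limma FDR 5.4e-06) and 1.41 ± 0.17 (limma FDR 4.4e-07). The step from 198 to 313 mg/kg-d was 1.14 ± 0.17 (limma FDR 6.4e-05), and that from 313 to 427 mg/kg-d was 0.16 ± 0.17 (limma FDR 0.683). Nqo1 rested on 17.0 to 52.0 reads in controls and 64.0 to 128 at 427 mg/kg-d, and since an offset of 1 CPM compresses low values, its change at 427 mg/kg-d was 1.62 with an offset of 0.1 CPM.

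Both genes of the thioredoxin branch rose at 313 and 427 mg/kg-d. Srxn1 repairs peroxiredoxins whose active cysteine was over-oxidised, and Txnrd1 is the cytosolic selenoenzyme that reduces thioredoxin with NADPH. Srxn1 stood at 2.98, 2.79, 2.56, 2.66, 3.02 and 2.87 in FROZ controls and at 3.11, 3.09, 3.15, 3.44, 3.22 and 3.24 at 198 mg/kg-d. It had 4.58, 4.06, 4.73, 4.25, 3.67 and 3.56 at 313 mg/kg-d and 4.81, 4.10, 4.63, 4.07, 3.91 and 4.87 at 427 mg/kg-d. Srxn1 was the 1 member whose 198 mg/kg-d animals all lay above all controls, which 1.41% of all genes did, by 0.39 ± 0.18 (SE). The exact permutation test gave p = 0.00216 there, the smallest it can give with 6 against 6 animals, while the limma FDR was 0.262. The changes at 313 and 427 mg/kg-d were 1.33 ± 0.18 (limma FDR 5.3e-06) and 1.58 ± 0.18 (limma FDR 1.8e-07).

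Txnrd1 varied less between animals of a dose and changed by a smaller amount. FROZ controls lay at 7.26, 7.24, 7.16, 7.16, 7.16 and 7.42 and the 198 mg/kg-d animals at 7.50, 7.36, 7.32, 7.49, 7.37 and 7.55. At 313 mg/kg-d it was 8.05, 8.11, 8.26, 7.85, 7.76 and 7.45, and at 427 mg/kg-d 8.23, 7.96, 8.04, 8.04, 8.05 and 8.34. Control animal 8 and animal 78 at 313 mg/kg-d nearly met, at 7.42 and 7.45. The changes were 0.20 ± 0.10 (SE; limma FDR 0.313), 0.68 ± 0.10 (limma FDR 1.4e-05) and 0.88 ± 0.10 (limma FDR 1.6e-07).

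The 2 subunits of glutamate-cysteine ligase, which makes the first step of glutathione synthesis, did not change alike. The catalytic subunit Gclc stood at 5.91, 5.77, 6.14, 6.18, 6.12 and 5.61 in FROZ controls and at 6.98, 6.86, 7.16, 6.27, 6.60 and 6.69 at 427 mg/kg-d, with no overlap. Its values were 6.05 to 6.58 at 198 mg/kg-d and 5.84 to 7.03 at 313 mg/kg-d, both of which overlapped with the controls. Its changes were 0.40 ± 0.17 (SE; limma FDR 0.216), 0.47 ± 0.17 (limma FDR 0.0354) and 0.81 ± 0.17 (limma FDR 0.00051). The call at 313 mg/kg-d was lost in 7 of 12 fits that left out 1 animal, with FDR up to 0.112, and that at 427 mg/kg-d was kept in all 12.

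The modifier subunit Gclm lay between 7.96 and 8.38 in FROZ controls, 8.04 and 8.42 at 198 mg/kg-d, 7.74 and 8.21 at 313 mg/kg-d, and 8.03 and 8.47 at 427 mg/kg-d. All 4 groups overlapped, and its changes were 0.09, -0.12 and 0.07, each with an SE of 0.09 and none called. The difference within a FROZ library, log2 Gclc minus log2 Gclm, is nearly free of library scaling, as both levels lie far above 1 CPM. It was -2.21 ± 0.33 (SD, n = 6) in controls and -1.47 ± 0.18 at 427 mg/kg-d, and all 6 treated animals lay above all controls (change 0.74, exact permutation test, two-sided p = 0.00216, the smallest possible). At 313 mg/kg-d the change of that difference was 0.60 (exact permutation test, p = 0.0303) and at 198 mg/kg-d 0.30 (exact permutation test, p = 0.0952). In FFPE the same difference had an SD of 1.32 in controls, and its changes from the lowest to the highest dose were -0.62, 0.41 and 0.88 (exact permutation test, p = 0.574, 0.550 and 0.177), with 2 of 6 animals at 427 mg/kg-d above all controls. FFPE Gclc was at 1.09 CPM in animal 49 at 198 mg/kg-d and at 5.34 CPM in control animal 8. At such levels the offset of 1 CPM bears on the difference. The comparison of the 2 subunits was chosen after the values were seen.

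Gsr, the reductase that returns oxidised glutathione to its reduced form, was highest at 313 mg/kg-d. FROZ controls ranged from 8.89 to 9.19 with a median of 9.05, and the 198 mg/kg-d animals from 8.80 to 9.33. At 313 mg/kg-d the values were 9.54, 9.56, 9.80, 9.46, 9.31 and 8.97, with 5 of 6 above all controls, and at 427 mg/kg-d they were 9.64, 9.12, 9.17, 9.31, 8.82 and 9.51. The change was 0.41 ± 0.12 (SE; limma FDR 0.0154) at 313 mg/kg-d and 0.23 ± 0.12 (limma FDR 0.165) at 427 mg/kg-d. The fall from 313 to 427 mg/kg-d, -0.18 ± 0.12, did not pass the test (limma FDR 0.482). Without animal 101, the lowest at 427 mg/kg-d, the change there was 0.32 with an FDR of 0.0444 (limma). That was the 1 call in 12 fits that left out 1 animal, and the limma FDR of the others reached 0.369.

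Cat and Hmox1, like Gclm, were called at no dose. Catalase, the peroxisomal enzyme that splits hydrogen peroxide, lay at 12.43, 12.19, 12.34, 12.35, 12.39 and 12 in FROZ controls and at 12.51, 12.41, 12.40, 12.47, 12.53 and 12.48 at 427 mg/kg-d, where 4 of 6 animals were above all controls. The change was 0.18 ± 0.09 (SE; limma FDR 0.141), with an exact permutation p of 0.00866 that is not adjusted over genes. At 313 mg/kg-d the change was 0.10, and it was -0.041 with median-ratio scaling.

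Hmox1, the heme oxygenase that cells induce under heme and oxidant stress, was counted at 5 to 25 reads a library in FROZ. Its values ranged from 0.64 to 1.33 in controls, 0.78 to 1.36 at 198 mg/kg-d, 0.76 to 2.13 at 313 mg/kg-d and 1.05 to 1.79 at 427 mg/kg-d. All groups overlapped, and the changes were -0.04, 0.14 and 0.27, each with an SE of 0.18 and none called (limma FDR 0.281 at 427 mg/kg-d). With an offset of 0.1 CPM the change at 427 mg/kg-d was 0.45 ± 0.31 (limma FDR 0.295). Liver macrophages, the Kupffer cells, are a known site of Hmox1 expression, and of 9 markers of these cells 7 were listed in FROZ. At 427 mg/kg-d, 4 of the 7 were called lower (C1qa, Adgre1, Cd5l and Csf1r, by -0.53 to -0.35), beside 7.33% of all genes, none was called higher, and none of the 7 was at 0 in every library of a dose. Their summed level ranged from 91.3 to 139 CPM in controls and from 74.7 to 97.1 CPM at 427 mg/kg-d, and its part in the Hmox1 values was not tested.

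**Figure D2:**
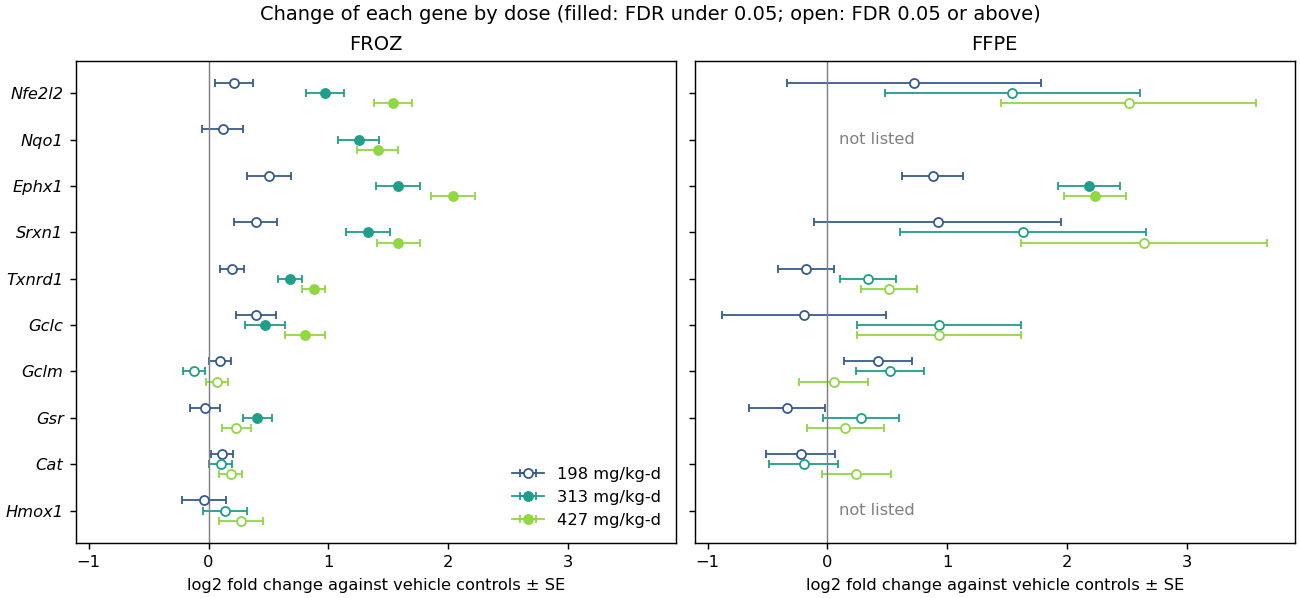
Log2 fold change ± SE against vehicle controls (x axis) for each gene (y axis) at 198, 313 and 427 mg/kg-d, FROZ on the left and FFPE on the right, with filled points for FDR under 0.05 and open points for the others. In FROZ the filled points are 7 at 313 and 6 at 427 mg/kg-d, and in FFPE they are those of Ephx1.

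Over the 4 doses as a trend, 6 of the 10 genes were called in FROZ, all upwards, where 32.2% of all genes were called in either direction. The slopes, in log2 units per 100 mg/kg-d, were 0.50 ± 0.05 (SE) for Ephx1, 0.40 ± 0.05 for Srxn1, 0.37 ± 0.05 for Nqo1, 0.37 ± 0.04 for Nfe2l2, 0.22 ± 0.02 for Txnrd1 and 0.18 ± 0.04 for Gclc. Gsr had a slope of 0.08 ± 0.03 and an FDR of 0.0565 in limma. Between neighbouring doses the change was not even. From 198 to 313 mg/kg-d 6 of the 10 genes were called higher (Ephx1, Nqo1, Srxn1, Nfe2l2, Txnrd1 and Gsr), where 8.05% of all genes were, and from 313 to 427 mg/kg-d Nfe2l2 alone was. Ephx1 (0.46 ± 0.18 SE) and Gclm (0.19 ± 0.09) had an unadjusted limma p of 0.018 and 0.049 at that last step, and Gclc (0.33 ± 0.17) and Txnrd1 (0.20 ± 0.10) of 0.057 and 0.059. For Srxn1 (0.25 ± 0.18), Gsr (-0.18 ± 0.12) and Nqo1 (0.16 ± 0.17) the step was smaller against its error.

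The 6 animals at 313 mg/kg-d were not alike. In FROZ, animals 77 and 78 were the 2 lowest of the 6 for each of the 6 genes called at 427 mg/kg-d. Animal 78 was lowest for 5 of them and animal 77 for Nfe2l2. In Gclc, animals 77 and 78 had 5.91 and 5.84, within the range of the controls, while the other 4 stood between 6.59 and 7.03. The same animals were low across other DCA-responsive genes. Over 391 further genes that changed more than 2-fold at 427 mg/kg-d in FROZ, the median change in the same direction was 0.89 in animal 77 and 0.69 in animal 78, against 0.96 to 1.21 in the other 4. In the FFPE libraries of these animals, made from partly other lobes, 273 of the 391 genes were listed and gave 0.91 and 0.67, against 1.08 to 1.31. The members did not keep this order in FFPE. Over the 5 of the 6 called genes listed there, the median change was highest in animal 77, at 1.93. It was 0.99 in animal 78 and 0.49 to 1.58 in the other 4. The intake of single animals was not given in the sources used here, and its part was not tested.

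**Figure D3:**
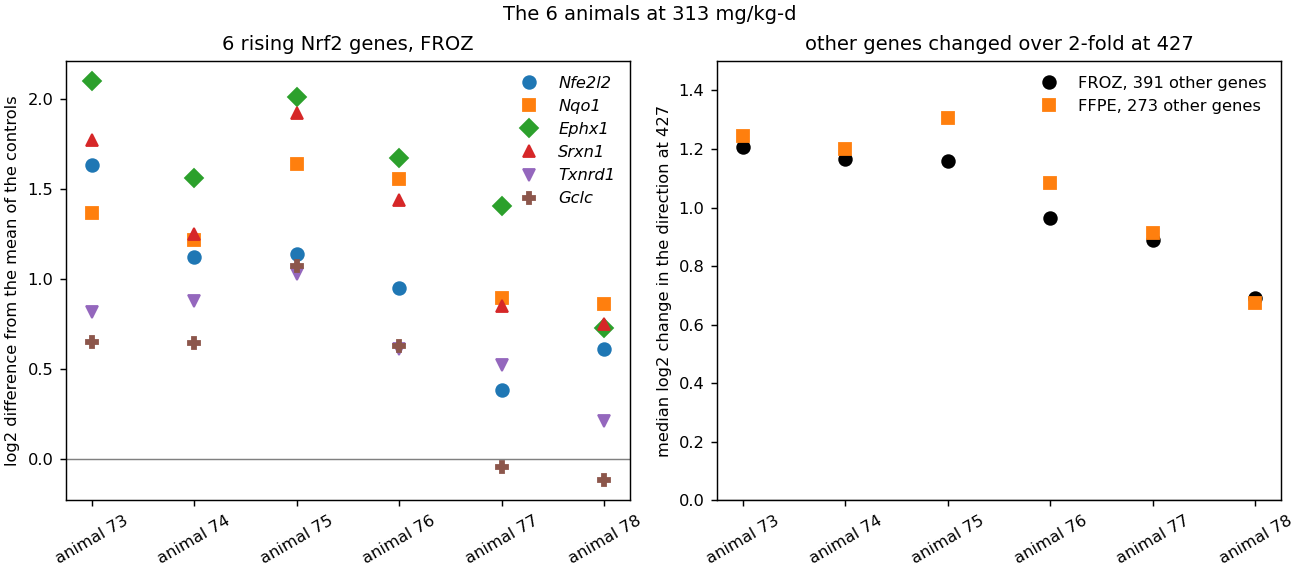
The 6 animals at 313 mg/kg-d (x axis). On the left, the log2 difference of each of 6 rising genes in FROZ from the mean of the controls; on the right, the median log2 change, in the direction seen at 427 mg/kg-d, of 391 other genes in FROZ and 273 in FFPE. Animals 77 and 78 are the 2 lowest in both panels.

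Correlations between members are given as a description. Over the 24 FROZ libraries the 15 pairs among the 6 genes called at 427 mg/kg-d had Pearson r of 0.71 to 0.95 with a median of 0.90, which the shared doses carry in part. After the mean of each dose was taken off, r ranged from 0.17 (Nqo1 with Txnrd1) to 0.74 (Txnrd1 with Srxn1), with a median of 0.60. Gsr, not called at that dose, had r of 0.73 with Txnrd1 and 0.74 with Srxn1, and within doses 0.77 and 0.74. Gclm had r between -0.22 and 0.23 with each of the other 9 genes and, within doses, between -0.25 (Hmox1) and 0.51 (Srxn1). All points share their library, its depth and its scaling.

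The genes most like each member were found by Pearson r over the 24 FROZ libraries, which the shared doses carry in part. Within doses r was lower for every pair named, from 0.62 (Gclc with Bnip3l) to 0.89 (Gsr with Skp1a). For Ephx1 they were Cpt2, a mitochondrial carnitine acyltransferase, and Ugt2b35, both at r = 0.97. Cpt2 and Txnrd1 were closest to Srxn1 (r = 0.96 and 0.95). For Txnrd1 they were Hsd17b11 and Hsdl2 (both 0.96), and for Nqo1 Cs, citrate synthase, and Hadha, of mitochondrial beta-oxidation (0.96 and 0.94). Nfe2l2 was most like Dusp3 and Ephx1 (0.95 and 0.94), and Gclc most like Colec12 and Bnip3l (both 0.82). For the members that did not rise at 427 mg/kg-d the closest genes were Skp1a and Ugdh for Gsr (0.91 and 0.88), Acvr2a and Smarce1 for Gclm (0.82 and 0.81), Asic5 and Gcdh for Cat (0.78 and 0.76), and Marveld3 and Baz1a for Hmox1 (0.70 and 0.68).

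In FFPE livers 1 of the 8 listed genes was called. With array quality weights 3 were called at 427 mg/kg-d (Ephx1, Srxn1 and Txnrd1), and with only the controls and that dose in the fit 2 were (Ephx1 and Srxn1). The shares of all genes called in those 2 fits are not given here, so the counts of 3 and 2 have no background beside them. In the main fit Ephx1 rose at 313 and at 427 mg/kg-d, where 0.764% and 1.54% of all genes were called higher and, at 427 mg/kg-d, 0.869% lower. No member was called at 198 mg/kg-d, where 0.0599% of all genes were. The share of called genes that were higher at 427 mg/kg-d was 64.0% and, with median-ratio scaling, 52.1%. Ephx1 stood at 8.86, 7.99, 8.24, 8.49, 8.43 and 7.98 in FFPE controls and at 9.55, 8.45, 8.82, 9.42, 9.08 and 9.93 at 198 mg/kg-d. It was 10.96, 10.92, 11.04, 10.60, 10.26 and 9.32 at 313 mg/kg-d and 10.83, 10.40, 10.72, 10.46, 9.98 and 11.01 at 427 mg/kg-d. Both higher doses lay wholly above the controls. The changes were 0.88 ± 0.26 (SE; limma FDR 0.220), 2.18 ± 0.26 (limma FDR 7.7e-07) and 2.24 ± 0.26 (limma FDR 3.3e-07).

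**Figure D4:**
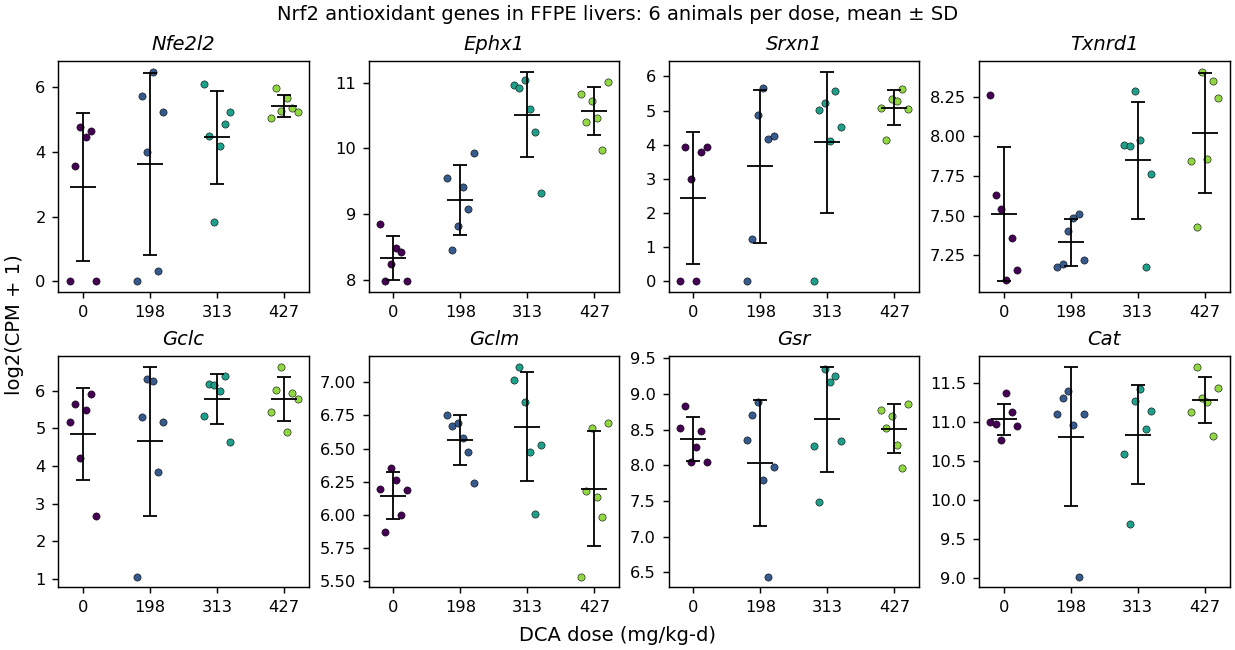
Levels of the 8 listed genes in FFPE livers, with dose in mg/kg-d on the x axis and log2(CPM + 1) on the y axis, whose range differs between panels. Points are the 6 animals of a dose and bars the mean ± SD. Nfe2l2 and Srxn1 are at 0 in 3 and 4 of the 24 libraries, none of them at 427 mg/kg-d.

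Nfe2l2 and Srxn1 had wide spreads in FFPE below the highest dose. Nfe2l2 was at 0 in control animals 3 and 8, while the other 4 controls had 3.56, 4.78, 4.45 and 4.64, or 49.0 to 147 reads. The FROZ libraries of the same 2 animals had 3.89 and 3.61, within the range of the FROZ controls. At 198 mg/kg-d Nfe2l2 was 0, 5.72, 4.00, 6.47, 0.33 and 5.24, at 313 mg/kg-d 6.10, 4.49, 1.85, 4.19, 4.85 and 5.22, and at 427 mg/kg-d 5.05, 5.96, 5.27, 5.67, 5.35 and 5.22. The value of 0.33, in animal 53, was 1 read, and a library at 0 allows up to 3 reads. The control libraries at 0, of animals 3 and 8, held 4.57 and 5.05 M reads in all, near the FFPE median of 4.72 M.

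At 427 mg/kg-d all 6 animals lay above all controls for Nfe2l2, Srxn1 and Ephx1, 3 of 8 genes, where 2.94% of all genes did so. In FROZ that count was 6 of 10, where 11.4% of all genes did. The FFPE changes at 427 mg/kg-d were 2.51 ± 1.06 (SE) for Nfe2l2 (limma FDR 0.399) and 2.64 ± 1.03 for Srxn1 (limma FDR 0.298). For each the exact permutation test gave p = 0.00216, the smallest possible and not adjusted over genes. Since 2 controls were at 0 for each, the offset sets the size of these changes, which were 3.64 and 3.78 with an offset of 0.1 CPM and 6.96 and 7.11 with 0.0001 CPM. Srxn1 was 0, 3.94, 3.00, 0, 3.80 and 3.93 in controls and 5.06, 4.14, 5.35, 5.28, 5.64 and 5.05 at 427 mg/kg-d. It was also at 0 in animal 49 at 198 mg/kg-d and animal 73 at 313 mg/kg-d.

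The other 5 genes overlapped between controls and each dose in FFPE. At 427 mg/kg-d the changes were 0.93 ± 0.68 (SE) for Gclc, 0.52 ± 0.23 for Txnrd1, 0.24 ± 0.29 for Cat, 0.15 ± 0.32 for Gsr and 0.05 ± 0.28 for Gclm, all with limma FDR of 0.474 or more. Gclm had its highest FFPE values at the lower doses, with 5 of 6 animals above all controls at 198 mg/kg-d (change 0.42 ± 0.28) and at 313 mg/kg-d (0.52 ± 0.28), neither called (limma FDR 0.564 and 0.492). As a trend, Ephx1 was called in FFPE (slope 0.57 ± 0.06 per 100 mg/kg-d, where 2.17% of all genes were called), and the slopes of Srxn1 (0.61 ± 0.23), Nfe2l2 (0.58 ± 0.23) and Txnrd1 (0.13 ± 0.05) had FDR of 0.242, 0.331 and 0.358.

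The change against controls was compared between the 2 preservations of the same animals. None of the 8 genes was called at any dose, with 0.0303%, 0% and 0.0303% of all 6591 shared genes called at 198, 313 and 427 mg/kg-d. The difference of Ephx1 was nearest to a call. The FFPE change minus the FROZ change was, from the lowest to the highest dose, 0.37 ± 0.16 (SE), 0.61 ± 0.16 (unadjusted limma p 0.00083, FDR 0.295) and 0.19 ± 0.16. For Nfe2l2 and Srxn1 the SE of that difference was above 1 log2 unit, so a difference of the size of their response was not detectable.

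The levels themselves differed between preservations for 5 of the 8 genes, against 75.8% of all shared genes. Cat, Gclm, Gclc and Gsr were lower in FFPE by 1.39 ± 0.11, 1.78 ± 0.09, 1.10 ± 0.22 and 0.80 ± 0.11 log2 units (SE), the first 2 and Gsr in all 24 animals and Gclc in 23. Ephx1 was higher in FFPE by 0.60 ± 0.06, in 24 of 24 animals. Nfe2l2, Srxn1 and Txnrd1 were not called. Each table was scaled to its own listed genes, so these are differences of relative level.

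The wider pathway was counted from 8 lists that leave out the 10 members, at 427 mg/kg-d in FROZ, beside 22.7% of all genes called higher and 7.33% lower. Those shares are for CPM, which called 3391 of all 11275 genes, 75.6% of them higher. Median-ratio scaling called 2847 of them at that dose, 50.0% higher, which is the background for the counts with that scaling. Among the regulators of Nrf2, 6 of 9 measured genes rose and none fell (median change 0.36). They were Nfe2l1, a relative of Nfe2l2 (0.71 ± 0.08 SE), the small Maf gene Mafk (0.49 ± 0.16), Bach1, Cul3, Sqstm1 and, by 0.28 ± 0.06, Keap1 itself. With median-ratio scaling 2 of the 9 rose and 1 fell. In glutathione synthesis and recycling 5 of 7 rose (median 0.43), led by Oplah, the 5-oxoprolinase (1.06 ± 0.14), and Gpx4, the peroxidase of lipid peroxides (0.84 ± 0.15), and with median-ratio scaling 3 of 7 did.

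In the thioredoxin and peroxiredoxin system 6 of 11 rose and 1 fell (median 0.26), and with median-ratio scaling 4 rose and 1 fell. Txnip, an inhibitor of thioredoxin, rose by 1.25 ± 0.15 (SE) and thioredoxin itself, Txn1, by 0.65 ± 0.10, while Prdx4, the peroxiredoxin of the endoplasmic reticulum, fell by 0.65 on the log2 scale. Of 6 listed enzymes of NADPH supply and the pentose phosphate path, 5 rose (median 0.63), and with median-ratio scaling 3 of 6 did. The malic enzyme Me1 was at 2.08 ± 0.19 and the first enzyme of that path, G6pdx, at 0.91 ± 0.21.

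Of 18 further conjugation and transport genes that Nrf2 is known to raise, 12 rose and 1 fell (median 0.67). With median-ratio scaling 10 of the 18 rose and 1 fell (median 0.53). The glutathione transferases Gsta1 and Gsta2 rose by 4.78 ± 0.29 and 3.11 ± 0.26 (SE), each from below 3 in controls, and Gstp1 fell by 0.72 on the log2 scale. Near-identical members of the transferase families can share detector oligos, so their single values are uncertain. Of 8 genes of iron and heme handling 3 rose and 1 fell (median 0.23): the ferritin chains Ftl1 (0.80 ± 0.12) and Fth1, the biliverdin reductase Blvrb (0.62 ± 0.13), and Hpx, the plasma carrier of heme, lower by -0.87 ± 0.18.

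Around catalase, 11 of 14 superoxide dismutases and peroxisomal genes rose and 1 fell (median 0.79). The peroxisomal beta-oxidation genes Ehhadh and Acaa1b rose by 4.75 ± 0.31 and 2.97 ± 0.26 (SE), while Cat, of the same organelle, did not pass the test, and Sod3, the extracellular dismutase, fell by 0.52 on the log2 scale. With median-ratio scaling 10 of these 14 genes rose and 3 fell, and in the iron and heme list and the CAR and PXR list the genes that fell went from 1 to 2 each. Of 8 genes listed for the xenobiotic receptors CAR and PXR, which also regulate Ephx1, 3 rose and 1 fell (median -0.03). The dependence of the listed genes on either receptor was not tested. Cyp2b9 rose by 4.71 ± 0.39 and the P450 reductase Por by 0.68 ± 0.18. Cyp2c55 fell by 0.74 on the log2 scale, and Cyp2b10 was at -0.65 ± 0.37, not called.

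**Figure D5:**
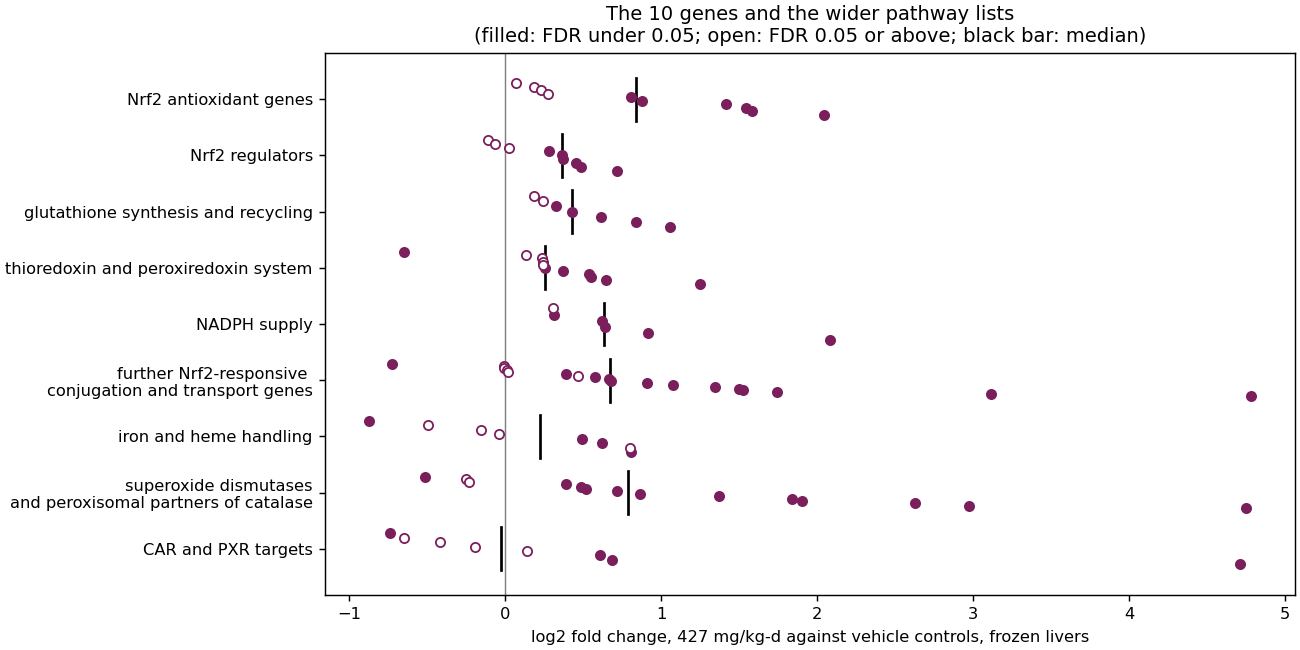
Log2 fold change at 427 mg/kg-d against vehicle controls in FROZ (x axis) for each gene of the 10 and of the 8 wider lists (rows), filled where FDR was under 0.05, with a black bar at the median of the list. The medians run from -0.03 for the CAR and PXR list to 0.84 for the 10 genes.

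In FFPE at 427 mg/kg-d, 1.54% of all genes were called higher and 0.869% lower. There the same lists gave 0 calls of 7 measured regulators, 0 of 6 glutathione genes and 0 of 10 thioredoxin genes. Of 4 measured genes of the NADPH and pentose phosphate list 1 was called (Me1, 2.02 ± 0.36 SE). Of 14 conjugation and transport genes 7 rose (5 with median-ratio scaling) and 1 fell, with Gsta1 at 4.52 ± 0.88 and Gstp1 at -1.05 ± 0.23, and of 14 genes around catalase 6 rose, with Ehhadh at 5.35 ± 0.71 and Acaa1b at 3.34 ± 0.44. In iron and heme handling Ftl1 rose (0.82 ± 0.22) and Hpx fell (-0.99 ± 0.21), of 8, where the call of Ftl1 was lost with median-ratio scaling. With that scaling 165 of all 6673 FFPE genes were called at 427 mg/kg-d, 52.1% of them higher. Of 5 measured genes of the CAR and PXR list 1 rose, the epoxide hydrolase Ephx2.

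Markers of the other cell types of the liver were counted in FROZ at 427 mg/kg-d beside these results. None of 6 hepatocyte markers, 3 cholangiocyte markers and 4 lymphocyte markers was called in either direction. Stab2 of 6 endothelial markers, Dcn of 6 stellate and fibroblast markers and Alas2 and Hba-a1 of 5 erythroid markers were called lower, and none was called higher. Of all genes, 7.33% were called lower. The median summed erythroid level was 59.2 CPM in controls and 33.7 CPM at 427 mg/kg-d. With median-ratio scaling 3 of 6 hepatocyte, 3 of 6 endothelial and 1 of 3 cholangiocyte markers were called lower. That scaling called 2847 of all 11275 genes, 50.0% of them higher and the others lower. In FFPE 2 of 5 hepatocyte markers were called lower, Apoa1 (-0.79 ± 0.18 SE) and Serpina1a (-1.26 ± 0.31), beside 0.869% of all genes. The summed level of the 5 ranged from 46483 to 58313 CPM in controls and 31743 to 37286 CPM at 427 mg/kg-d. No listed marker of the 7 lists was called higher in FROZ or FFPE at 427 mg/kg-d. In FFPE only 4 of 9 Kupffer cell, 2 of 5 cholangiocyte and 0 of 6 lymphocyte markers were listed, so lymphocytes could not be examined there. The part of these cells in the members' values was not tested.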

How the data were processed

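Per the labels and the study's methods, the authors aligned TempO-Seq reads to mm10 with STAR 2.6, counted them in Partek Flow by expectation maximisation, removed genes of low expression, and deposited log2(CPM + 1) for FROZ and FFPE in separate tables. These log2 values as deposited were analysed, with groups from the labels. Differences were tested with limma 3.58.1 in R 4.3.3 (empirical Bayes with a variance trend), across all genes of a table on its 24 libraries, with Benjamini-Hochberg adjustment. A fold change is on the log2(CPM + 1) scale and understates low genes. Differences between preservations were tested on the FFPE minus FROZ value of each animal, since the labels tie both libraries to 1 animal. Over 4815 genes the deviations from the dose mean had a median correlation of 0.128 within an animal and -0.0232 between animals of a dose. Among the 6 animals of its dose, the FROZ library of 21 of 24 animals correlated best with its own FFPE library. Exact permutation tests were two-sided, over all splits of 6 against 6. Reads of single libraries were read from the step of the low CPM values, which were whole multiples within 0.1 read for 96.3% to 97.6% of them in FROZ and 77.5% to 96.2% in FFPE. These depths cover counting error only. Per the study's methods some very abundant transcripts were attenuated alike in all samples, none of the 10 genes among them.

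Named were all 10 genes, the 2 largest increases and decreases called in each list at 427 mg/kg-d in FROZ, and the 2 genes most like each member by Pearson r. Single genes outside this rule (Keap1, Bach1, Cul3, Sqstm1, Fth1, Ephx2 and Cyp2b10, with the marker genes) were named after their values were seen. The members and the pathway and marker lists were chosen with earlier results of these data known. The limma step was also run on simulated data with known changes, whose outcome is not given here. Those values were drawn from a normal distribution around the mean of each gene. They do not mimic FFPE genes such as Nfe2l2 and Srxn1, which were undetected in some libraries.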

Additional observations from a re-analysis of the deposited data

Results flagged for a closer look

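Each dose of each gene was searched for a single animal far from the other 5, by Dixon's rule at the 95% level. Of 72 such sets 4 were picked out, and chance picks out about 1 in 20. Control animal 8 had the highest FROZ value of Txnrd1, 7.42, where the other controls lay between 7.16 and 7.26. The same animal had the lowest FROZ control value of Hmox1, 0.64, at 5 reads. Srxn1 was at 0 in the FFPE library of animal 73 at 313 mg/kg-d, where the other 5 had 4.10 to 5.58. Cat was at 9.02 in the FFPE library of animal 53 at 198 mg/kg-d, where the other 5 had 10.95 to 11.39. For none of the 8 genes did the difference between FROZ and FFPE responses pass the test.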

How the results depend on the processing

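The counts of members called were recomputed with offsets of 0.1 and 0.0001 CPM, a mean of at least 10 CPM, median-ratio scaling, array quality weights, no variance trend, only the 2 groups, CPM over the shared genes (for differences between preservations), and each animal left out. They stayed within 1.5 times of the count given, except as follows. With a fold above 2 as well, 3 members were called at 313 mg/kg-d in FROZ in place of 7. In FFPE, array quality weights gave 3 members at 427 mg/kg-d and 3 with a trend (Ephx1, Srxn1 and Txnrd1), only the 2 groups gave 2 at 427 mg/kg-d, and the Jonckheere statistic with 100000 permutations gave 4 with a trend (with Nfe2l2) at an unadjusted p. The shares of all genes that passed in these FFPE alternatives are not given here. Leaving out 1 animal gave 6 to 7 members at 313 mg/kg-d, 6 to 7 at 427 mg/kg-d and 6 to 7 with a trend in FROZ, and 1 to 1 of each in FFPE. Without the replicate block, that is with FROZ and FFPE libraries unpaired, 0 members differed in response at each dose and 5 in level, as with it.

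Signs turned only for changes that were not called. With median-ratio scaling, Cat at 313 mg/kg-d in FROZ was -0.041 and Gclm at 427 mg/kg-d was -0.076 in FROZ and -0.052 in FFPE. At 198 mg/kg-d in FFPE, quality weights gave Cat 0.10, Gclc 0.54 and Gsr 0.19, and without the FFPE libraries under 3 M reads, an alternative chosen after the data were seen, Gclc was 0.30. With single animals left out, changes at 198 mg/kg-d in FROZ ran from -0.091 to 0.013 for Gsr, -0.039 to 0.20 for Nqo1 and -0.14 to 0.029 for Hmox1, and at 313 mg/kg-d from -0.026 to 0.25 for Hmox1. In FFPE they ran from -0.63 to 0.53 for Gclc and -0.34 to 0.14 for Cat at 198 mg/kg-d, -0.31 to 0.033 for Cat at 313 mg/kg-d, and -0.047 to 0.18 for Gclm at 427 mg/kg-d. The cause of these shifts was not tested. Hmox1 rested on 5 to 25 reads a FROZ library, the cause of the values at 0 in FFPE was not tested, and p-values measure the spread between animals of 1 experiment.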
